A study of Mus musculus with 6 samples.

Results

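Bile acid uptake and signalling genes are described here across the cells of the mouse small-intestinal epithelium. The 7 genes, taken by symbol from the 27998 genes of the matrices, were Slc10a2, Fabp6, Slc51a, Slc51b, Nr1h4, Nr0b2 and Fgf15, and each was found in all 6 libraries. Epithelial cells of C57BL/6J mice aged 8 weeks had been sequenced singly with 10x Chromium 3' version 2 chemistry, which counts captured RNA molecules as UMIs. There were 3 libraries labelled Itgb7 KO and 3 wild-type libraries, and no other treatment is stated for either group. Itgb7 encodes the integrin β7 subunit, and the series title names T cells that carry the αEβ7 integrin as the subject of the study. The labels give neither the Itgb7 allele, nor the number of mice behind a library, nor the length of intestine taken, so each p-value is set against the spread of these libraries alone, and that spread may be technical.

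Bile acids are made in the liver, released into the duodenum and recovered at the end of the small intestine, the ileum, to return to the liver. In ileal enterocytes, the absorptive cells of the villus, Slc10a2 encodes the apical sodium-dependent carrier that takes bile acids up from the lumen. Fabp6 encodes the cytosolic ileal bile acid-binding protein. Slc51a and Slc51b encode both subunits of the organic solute transporter that releases bile acids across the basolateral membrane into portal blood. Nr1h4 encodes FXR, the nuclear receptor for bile acids, which works with RXR and drives Fabp6, Slc51a, Slc51b, Fgf15 and Nr0b2. Fgf15 encodes a hormone that travels to the liver and lowers bile acid synthesis, and Nr0b2 encodes SHP, a co-repressor of other nuclear receptors that is best known in hepatocytes.

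In the mm10 build, by GENCODE M21, Fabp6 (ENSMUSG00000020405) lies on the minus strand of chromosome 11 at 43596049 to 43601540. Slc10a2 (ENSMUSG00000023073) is on chromosome 8 at 5083219 to 5105351, also on the minus strand. Slc51a (ENSMUSG00000035699) lies on chromosome 16 at 32474504 to 32487879, where it overlaps Pcyt1a on the other strand. Slc51b (ENSMUSG00000053862) lies on chromosome 9 at 65412714 to 65422955, where it overlaps Rasl12 on the other strand. Nr1h4 (ENSMUSG00000047638) is on chromosome 10 at 89454234 to 89533585, on the minus strand. Nr0b2 (ENSMUSG00000037583) is on the plus strand of chromosome 4 at 133553376 to 133556536. Fgf15 (ENSMUSG00000031073) lies on the plus strand of chromosome 7 at 144896531 to 144900953, where the annotated antisense RNAs Gm26793 and Gm39119 overlap it. Whether counting used the strand is not given in the sources used here. If it did not, reads of Slc51a, Slc51b and Fgf15 could not be told from those of their partners.

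The promoters of 4 of the genes are shown because FXR is known to bind an inverted repeat of a short motif with 1 base in its middle. Slc51a, Slc51b and Slc10a2 were also higher in cells chosen by their Fabp6 in the comparisons that follow. So were Nr1h4 and Fgf15, whose promoters are not shown. The promoters shown are RefSeq windows of 300 bases in build GRCm38.p6, from 250 bases before to 50 after the start of transcription, each on the minus strand and written 5′ to 3′. Capitals mark matches to GGTNANTNACC, a relaxed form of that repeat that reads the same on both strands. The windows are chr11:43601513-43601812 for Fabp6, chr9:65422724-65423023 for Slc51b, chr16:32487830-32488129 for Slc51a and chr8:5105238-5105537 for Slc10a2.
Fabp6: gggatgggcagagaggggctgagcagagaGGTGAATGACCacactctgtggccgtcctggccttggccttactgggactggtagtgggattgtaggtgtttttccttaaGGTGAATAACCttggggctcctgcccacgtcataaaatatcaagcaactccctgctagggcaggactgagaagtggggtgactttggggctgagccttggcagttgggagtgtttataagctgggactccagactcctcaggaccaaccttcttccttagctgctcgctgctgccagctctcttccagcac
Slc51b: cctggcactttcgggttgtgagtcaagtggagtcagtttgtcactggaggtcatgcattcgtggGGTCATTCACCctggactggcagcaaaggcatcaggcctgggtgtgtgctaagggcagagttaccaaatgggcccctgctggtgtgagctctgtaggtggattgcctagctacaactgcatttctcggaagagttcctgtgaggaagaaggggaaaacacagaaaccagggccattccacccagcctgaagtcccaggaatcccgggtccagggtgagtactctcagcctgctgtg
Slc51a: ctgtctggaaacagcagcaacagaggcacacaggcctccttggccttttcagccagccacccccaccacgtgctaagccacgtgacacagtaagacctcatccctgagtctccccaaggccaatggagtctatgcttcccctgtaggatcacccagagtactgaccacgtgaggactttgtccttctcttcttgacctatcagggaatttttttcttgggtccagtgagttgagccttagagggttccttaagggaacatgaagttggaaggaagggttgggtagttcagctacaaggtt
Slc10a2: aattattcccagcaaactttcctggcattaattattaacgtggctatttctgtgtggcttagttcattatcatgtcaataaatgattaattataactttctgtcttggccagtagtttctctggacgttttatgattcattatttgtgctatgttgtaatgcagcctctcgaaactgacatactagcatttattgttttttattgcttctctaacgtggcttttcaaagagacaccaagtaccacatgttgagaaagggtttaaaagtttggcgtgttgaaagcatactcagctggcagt
The Fabp6 window holds 2 matches, which begin 221 and 141 bases before the start, and the Slc51b window holds 1, which begins 186 bases before it. The windows of the other 4 genes with an entry, Slc51a, Slc10a2, Nr1h4 and Nr0b2, hold 0. The start used for Nr1h4 lies 26927 bases from the gene start given above, so its 0 does not cover the promoter there. For Slc51b the start used lies 182 bases inside the gene as given above, so most of its window is within the gene. Its match, which begins 186 bases before the start used, thus lies at the gene start given above. Of 32851 mouse promoter windows of this length, 86 (0.262%) hold a match. The stricter form GGTCANTGACC is in 13 of them (0.0396%), none of these among the genes described. A match describes these letters and is not a measured site.

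The matrices held 26153 barcodes, of which 25069 were kept as cells, and 1417 to 13621 was the range of the libraries' smallest UMI total per barcode. Medians per kept cell were 19384, 9175 and 6059 UMIs in the libraries labelled Itgb7 KO and 22266, 11790.5 and 12013.5 UMIs in the wild-type libraries. Replicate 1 of each group stood apart from the rest, with the deepest barcodes and the most Paneth cell RNA. In enterocyte-like cells the 14 Paneth markers summed to 4090, 223 and 159 CPM in the libraries labelled Itgb7 KO and to 8560, 194 and 378 CPM in the wild-type libraries. Between 12 and 42 barcode sequences were shared by each pair of libraries. Itgb7 itself had 18, 33 and 12 UMIs in the libraries labelled Itgb7 KO and 3, 8 and 2 UMIs in the wild-type libraries. The libraries labelled Itgb7 KO thus held more of the transcript. A 3' tag may lie outside the deleted part and then checks nothing, so the group is called by its label throughout. Of 13 T cell markers 1 was at 0 in the kept cells, and their sum was 0.207 to 0.448 CPM in the libraries labelled Itgb7 KO and 0.45 to 3.22 CPM in the wild-type libraries.

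Levels by cell class, in counts per 1000000 UMIs (CPM) of the summed cells of a library, placed the transport genes in the absorptive lineage. The 26 clusters gave 8314 enterocyte-like cells, of which 6022 were mature and 2292 lower-villus, beside 8281 transit-amplifying-like, 2462 stem-like, 4442 goblet-like, 649 enteroendocrine-like, 301 Paneth-like and 104 tuft-like cells. These levels are descriptions, since the cells were clustered on many of the same genes. With the 7 genes left out of the clustering, each gene's level in enterocyte-like cells as a whole moved by less than 1 SD. The split of these cells into mature and lower-villus was not stable. Cluster 14, described further on, tied between the markers of both classes and was placed with the mature cells. In the clustering without the 7 genes and in that with doublets kept, the cluster highest in Fabp6 held 1799 and 1694 cells and was classed as lower-villus. These comparisons of both classes were added after seeing the data.

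The uptake carrier Slc10a2 was rare, with 199 UMIs among all kept cells. In mature enterocyte-like cells it had 1.98, 1.17 and 2.15 CPM in the libraries labelled Itgb7 KO and 3.06, 1.80 and 1.69 CPM in the wild-type libraries. Lower-villus cells had 0.955 CPM at most, and enteroendocrine-like cells reached 1.02 and 1.22 CPM with 1 UMI in each of 2 libraries, which overlaps the lowest mature value. Of the 136 UMIs of the mature class 103 lay in cluster 14. Mature and lower-villus cells averaged 0.526 and 1.99 CPM without the 7 genes in the clustering and 0.467 and 2.82 CPM with doublets kept, so the order of both classes turned. In the tuft-like cells 0 UMIs were found, where 3 UMIs would have made between 8.81 and 29.7 CPM in a library.

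The binding protein Fabp6 had 1738, 519 and 673 CPM in mature enterocyte-like cells of the libraries labelled Itgb7 KO and 2477, 1151 and 1456 CPM in those of the wild-type libraries. Lower-villus cells had 595, 119 and 363 CPM in the libraries labelled Itgb7 KO and 792, 413 and 1374 CPM in the wild-type libraries, so both enterocyte-like classes overlapped. Mature and lower-villus cells averaged 49.4 and 1627 CPM without the 7 genes in the clustering and 48.8 and 2402 CPM with doublets kept. In goblet-like cells Fabp6 stood at 2.49% to 6.74% of the level in enterocyte-like cells of the same library, and in stem-like cells at 1.48% to 8.64%. Free RNA in droplets can give every class some of an abundant transcript, and its part in these shares was not tested. Slc51a in goblet-like cells stood at 2.86% to 6.65% and Slc51b at 1.17% to 4.25% of their enterocyte level.

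The exporter subunits Slc51a and Slc51b were both highest in enterocyte-like cells. Slc51a had 247, 255 and 200 CPM in mature enterocyte-like cells of the libraries labelled Itgb7 KO and 309, 255 and 176 CPM in those of the wild-type libraries. Slc51b had 148, 138 and 127 CPM there in the libraries labelled Itgb7 KO and 184, 142 and 121 CPM in the wild-type libraries. For each subunit, mature, lower-villus and transit-amplifying-like cells did not overlap over the 6 libraries. Slc51a averaged 240 ± 47, 125 ± 20 and 38.6 ± 7.4 CPM in these 3 classes (SD, n = 6), and Slc51b averaged 143 ± 22, 69.4 ± 14.9 and 13.4 ± 4.0 CPM. Under both other clusterings mature and lower-villus cells overlapped for Slc51a and, with the 7 genes left out, for Slc51b, while with doublets kept Slc51b was higher in lower-villus cells (96.8 ± 12.8 CPM in mature and 156 ± 24 CPM in lower-villus cells; SD, n = 6). The stem-like cells had 10.7 ± 4.6 CPM of Slc51a and 4.23 ± 1.27 CPM of Slc51b (SD, n = 6), which overlapped the goblet-like cells with 9.57 ± 4.09 and 3.12 ± 1.96 CPM.

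The receptor Nr1h4 was spread more widely. It had 46.1, 40.8 and 37.2 CPM in mature enterocyte-like cells of the libraries labelled Itgb7 KO and 53.2, 40.2 and 34.8 CPM in those of the wild-type libraries, and lower-villus cells overlapped them with 38.5 ± 7.0 CPM (SD, n = 6). Under both other clusterings the lower-villus cells lay higher with no overlap, at 31.6 ± 3.2 CPM in mature and 45.4 ± 7.3 CPM in lower-villus cells without the 7 genes and 31.7 ± 3.3 and 51.5 ± 7.8 CPM with doublets kept (SD, n = 6). All other classes of over 1000 cells lay lower and did not overlap either of these. Transit-amplifying-like cells had 15.1 ± 2.6 CPM, goblet-like cells 14.5 ± 1.6 CPM and stem-like cells 10.1 ± 1.4 CPM (SD, n = 6). In goblet-like cells this was 31.8% to 41.7% of the enterocyte level, against at most 6.74% for Fabp6 in the same cells. The part of free RNA in either share was not tested.

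The co-repressor Nr0b2 did not follow the absorptive lineage. With 553 UMIs among all kept cells, it had 1.84, 4.52 and 6.59 CPM in stem-like cells of the libraries labelled Itgb7 KO and 3.17, 2.98 and 2.08 CPM in those of the wild-type libraries. That was 105.5% to 375% of the level in enterocyte-like cells of the same library, above it in 6 of 6 libraries. Transit-amplifying-like cells, at 2.19 ± 0.66 CPM, overlapped both the stem-like cells and the enterocyte-like cells, at 1.69 ± 0.69 CPM, and goblet-like cells, at 0.471 ± 0.166 CPM, lay below all 3 (SD, n = 6).

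The hormone gene Fgf15 had 645 UMIs among all kept cells. In mature enterocyte-like cells it had 3.54, 3.42 and 2.56 CPM in the libraries labelled Itgb7 KO and 1.08, 10.3 and 3.15 CPM in the wild-type libraries. Lower-villus cells had 2.92 ± 1.37 CPM, transit-amplifying-like cells 1.61 ± 0.62 CPM and stem-like cells 1.35 ± 0.82 CPM, and these neighbours overlapped. Goblet-like cells had 0.428 ± 0.316 CPM (SD, n = 6).

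**Figure D1:**
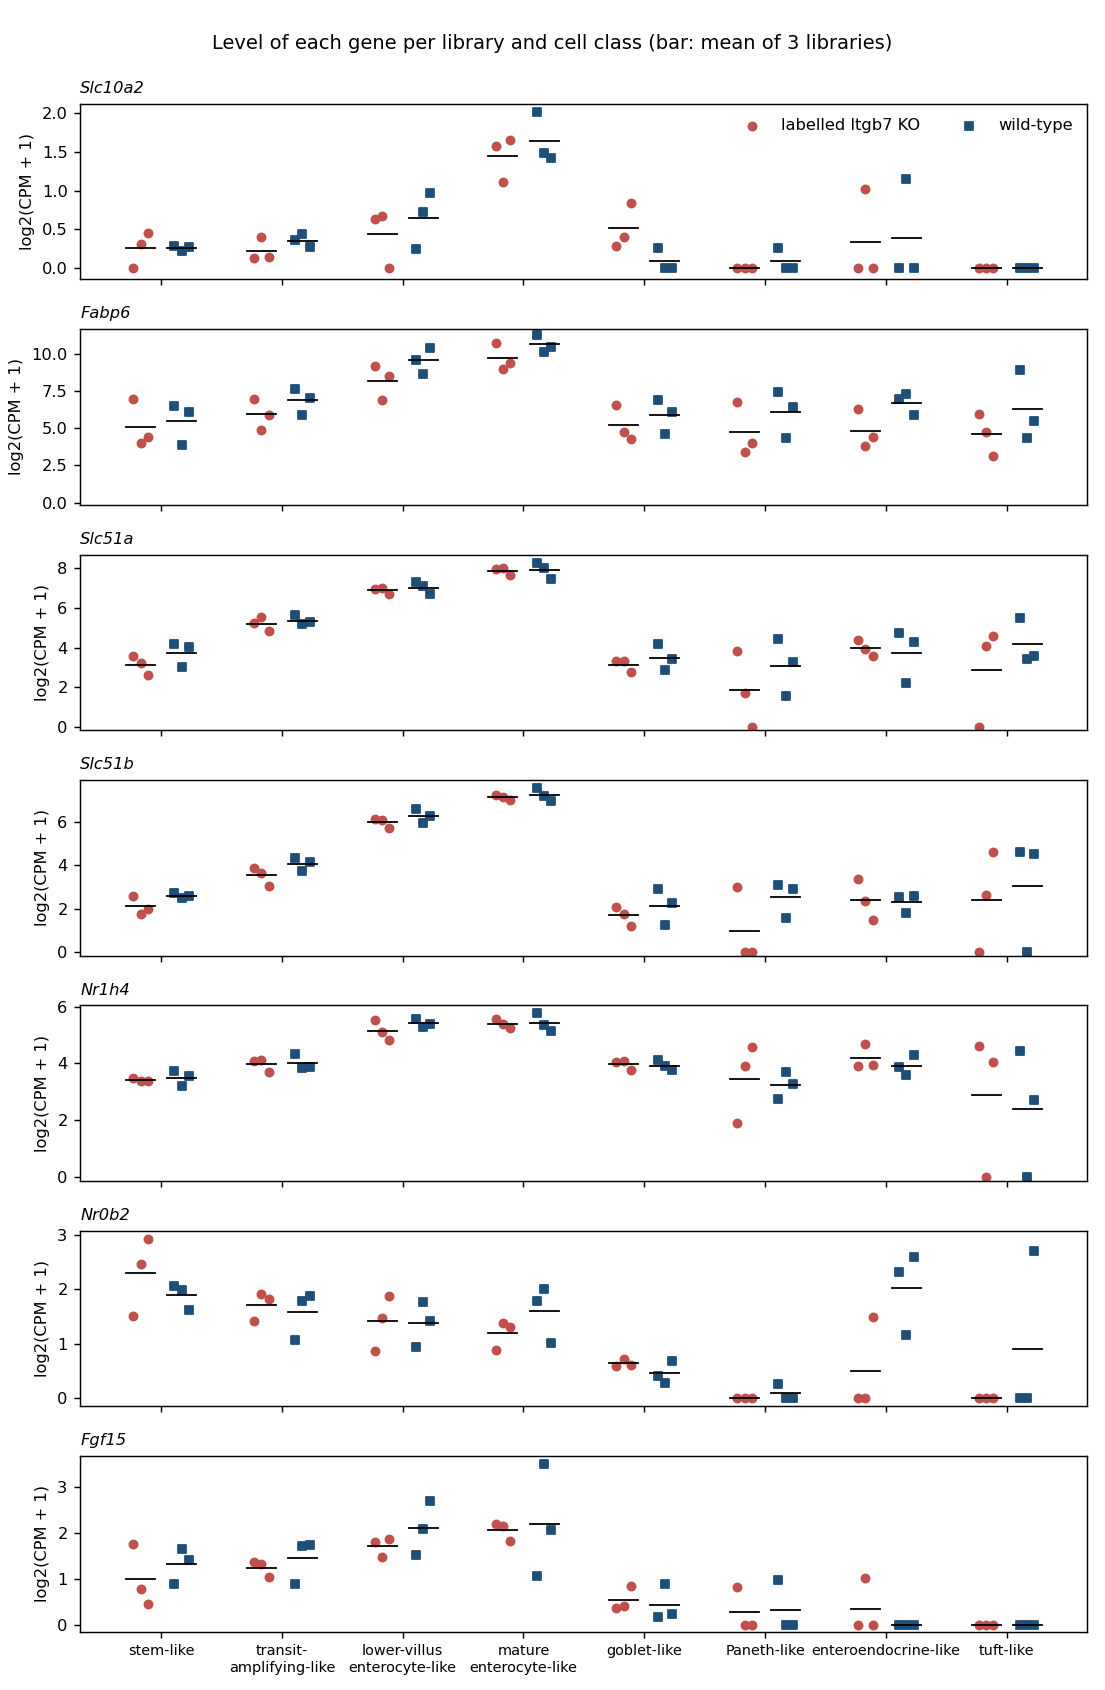
Level of each gene as log2(CPM + 1) in each cell class, with 1 point per library, libraries labelled Itgb7 KO to the left of wild-type, and a bar at the mean of 3 libraries. Slc51a, Slc51b and Nr1h4 are highest in both enterocyte-like classes, and Slc10a2 is highest in the mature class, which here holds cluster 14. Nr0b2 in stem-like cells lies between 1.84 and 6.59 CPM.

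Within the enterocyte-like cells the genes parted by cluster. Cluster 14, with 929 mature enterocyte-like cells, had 8315 ± 3693 CPM of Fabp6 (SD, n = 6). The next were lower-villus cluster 7 with 1112 ± 711 CPM and mature cluster 4 with 239 ± 163 CPM, and the other 5 enterocyte-like clusters had 41.9 to 73.5 CPM. Slc10a2 had 9.85 ± 3.32 CPM in cluster 14 and 0.884 ± 0.634 CPM in cluster 7, and no enterocyte-like cluster other than these exceeded 0.702 CPM. Slc51a and Slc51b were not bound to Fabp6 in this way. Cluster 14 had 445 ± 117 CPM of Slc51a and 331 ± 63 CPM of Slc51b, and cluster 4, led by Apoa1, Apoa4 and Lct, genes of fat and lactose handling, had 276 ± 39 and 197 ± 18 CPM. Even cluster 15, in which 0 cells passed the Fabp6 mark used next, had 208 ± 30 CPM of Slc51a and 106 ± 15 CPM of Slc51b. Nr0b2 ran the other way, with 0.279 ± 0.323 CPM in cluster 14 and 4.18 ± 2.65 CPM in cluster 15 (SD, n = 6).

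Across the 26 clusters, the genes most like Fabp6 in their mean log2(CPM + 1), among 9602 genes of at least 10 CPM in some cluster, were Slc5a8 (Pearson r = 0.90), Tnfaip8l2 (0.88), Slc34a2 (0.84), Mgat4c (0.81) and Slc13a2 (0.80). For Slc10a2 they were Slc5a8 (0.87), Fabp6 (0.83), Slc13a2 (0.81), Tnfaip8l2 (0.80) and Slc34a2 (0.78). Slc5a8 encodes a sodium-coupled carrier of short-chain monocarboxylates, Slc34a2 a phosphate carrier and Slc13a2 a dicarboxylate carrier. With Fabp6, r was 0.83 for Slc10a2, 0.80 for Fgf15, 0.62 for Nr1h4, 0.60 for Slc51b, 0.54 for Slc51a and -0.31 for Nr0b2. Slc10a2 and Fgf15 stayed below 10 CPM, with 9.85 and 9.60 CPM in cluster 14, so neither could be named among the genes most like Fabp6. These are descriptions over clusters that share libraries, and cluster 14 lies far from the rest.

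**Figure D2:**
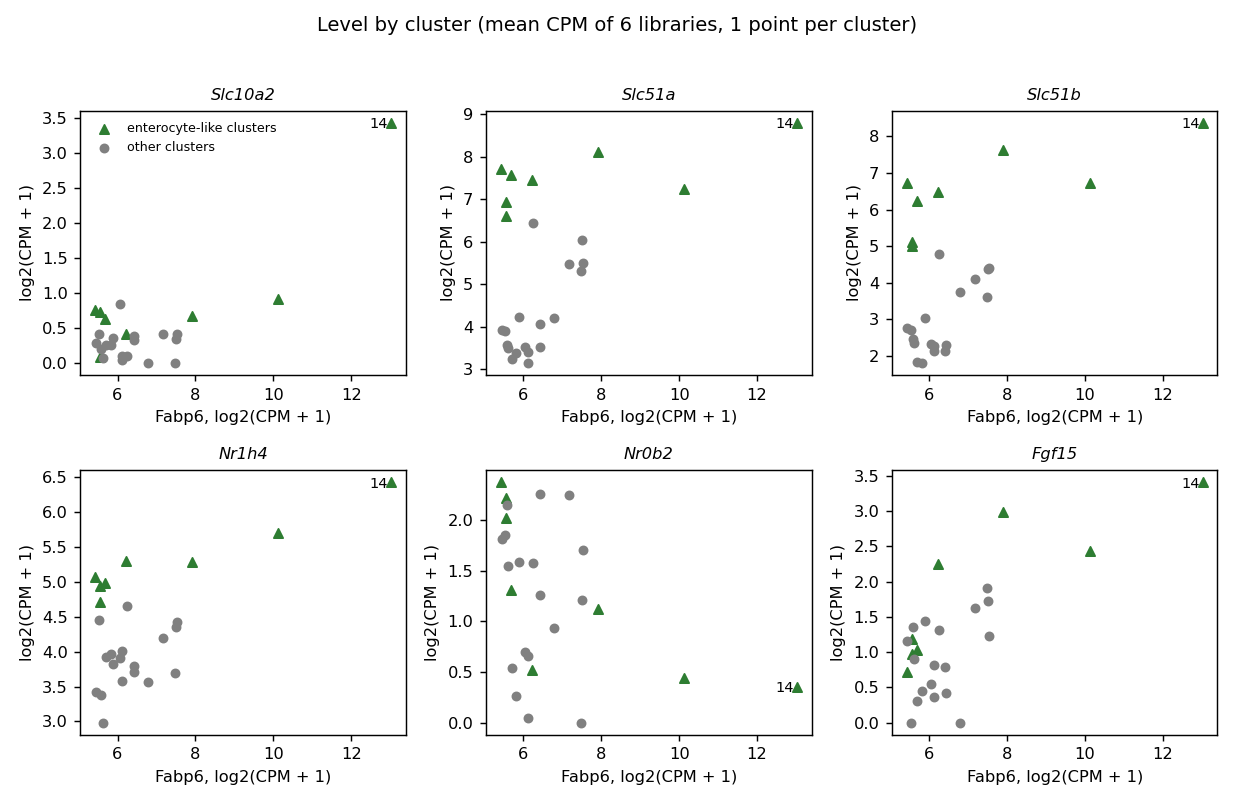
Each gene against Fabp6, both as log2(CPM + 1) of the mean CPM of 6 libraries, with 1 point per cluster and enterocyte-like clusters as triangles. Cluster 14 is highest for every gene but Nr0b2, and Slc51a and Slc51b are also high in enterocyte-like clusters with little Fabp6.

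As a mark of distal cells, Fabp6 was read at equal depth. Each cell was thinned at random to 1400 UMIs, and an enterocyte-like cell with at least 3 Fabp6 UMIs among them was called Fabp6-marked. This gave 637 marked cells of 8314 (7.66%), with medians of 10632 UMIs before thinning in marked and 10593 UMIs in unmarked cells. Cluster 14 held 469 of the marked cells (73.6%) and cluster 7 held 140 (22.0%). The same count of Fabp6 UMIs was reached by 0.122% of stem-like, 0.180% of goblet-like and 0.869% of transit-amplifying-like cells, against 8.25% of mature and 6.11% of lower-villus enterocyte-like cells. A limit of 1 UMI would have been less selective, since 7.05% of unmarked cells, 6.89% of goblet-like and 4.63% of stem-like cells held 1 or more. The intestinal region of a cell was not labelled, so marked means high in Fabp6 and no more.

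The share of enterocyte-like cells that were marked was 10.2%, 3.38% and 5.92% in the libraries labelled Itgb7 KO and 11.95%, 8.52% and 10.4% in the wild-type libraries. The exact binomial 95% intervals, which cover counting error only, were 8.04 to 12.7%, 2.63 to 4.27% and 4.80 to 7.20% in the libraries labelled Itgb7 KO, and 9.72 to 14.5%, 7.12 to 10.1% and 9.08 to 11.9% in the wild-type libraries. The group means of 6.50% ± 3.45 in libraries labelled Itgb7 KO and 10.3% ± 1.7 in wild-type libraries (SD, n = 3 each) differed by -3.80 percentage points. The groups overlapped, and the difference did not pass an exact 2-sided permutation test (p = 0.2, where 3 against 3 libraries allow no p below 0.1). Between same-numbered libraries the share was lower in the library labelled Itgb7 KO in 3 of 3 pairs (exact 2-sided paired permutation p = 0.25, the smallest that 3 pairs allow). The labels state no such pairs.

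Marked cells carried more of every other member except Nr0b2. Counts summed per library over marked and over unmarked enterocyte-like cells were compared with edgeR's quasi-likelihood test, with the library as a block and Benjamini-Hochberg adjustment over all genes. Of the 6 genes other than Fabp6, 5 rose and 1 fell at an adjusted p of 0.05, where 10.3% of all 10924 genes tested, Fabp6 included, were called higher and 13.1% lower. All 6 had enough counts to be tested. Fabp6 made the mark, so its levels of 13097 ± 2023 CPM in marked cells and 81.7 ± 43.9 CPM in unmarked cells (SD, n = 6) are given without a test.

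Slc10a2 in marked cells had 15.6, 19.3 and 12.6 CPM in the libraries labelled Itgb7 KO and 16.6, 11.97 and 9.22 CPM in the wild-type libraries. In unmarked cells it had 0.167, 0.492 and 0.987 CPM in the libraries labelled Itgb7 KO and 0.138, 0.598 and 0.754 CPM in the wild-type libraries. Marked and unmarked cells did not overlap, and the log2 fold change was 4.71 ± 0.31 (SE; edgeR adjusted p = 1.44e-22). The 637 marked cells held 103 of the gene's UMIs and the 7677 unmarked cells held 46.

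Slc51a had 523, 612 and 377 CPM in marked cells of the libraries labelled Itgb7 KO and 589, 437 and 337 CPM in those of the wild-type libraries. Its unmarked cells had 182, 209 and 166 CPM in the libraries labelled Itgb7 KO and 214, 203 and 144 CPM in the wild-type libraries. The lowest marked value thus lay above the highest unmarked one, with a log2 fold change of 1.33 with an SE of 0.05 (edgeR adjusted p = 1.55e-39).

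Slc51b rose slightly more, by 1.73 ± 0.05 on the log2 scale (SE; edgeR adjusted p = 4.90e-47); whether the subunits differ was not tested. It had 380, 378 and 326 CPM in marked cells of the libraries labelled Itgb7 KO and 391, 336 and 292 CPM in those of the wild-type libraries. In unmarked cells it had 100.4, 111 and 95.9 CPM in the libraries labelled Itgb7 KO and 123, 100.95 and 94.1 CPM in the wild-type libraries, again with no overlap.

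Nr1h4 had 100.8, 77.2 and 84.7 CPM in marked cells of the libraries labelled Itgb7 KO and 110, 99.7 and 81.6 CPM in those of the wild-type libraries. Unmarked cells had 40.2, 37.7 and 31.9 CPM in the libraries labelled Itgb7 KO and 42.7, 34.6 and 31.2 CPM in the wild-type libraries. The receptor's transcript was therefore higher in marked cells of 6 of 6 libraries, with a log2 fold change of 1.35 with an SE of 0.07 (edgeR adjusted p = 2.49e-27).

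Fgf15 had 22.9, 34.8 and 3.61 CPM in marked cells of the libraries labelled Itgb7 KO and 2.51, 25.5 and 7.28 CPM in those of the wild-type libraries. Unmarked cells had 1.25, 2.08 and 2.52 CPM in the libraries labelled Itgb7 KO and 1.17, 6.85 and 3.22 CPM in the wild-type libraries. The marked cells were higher in 6 of 6 libraries, though the marked and unmarked values overlapped, and the log2 fold change was 2.30 ± 0.26 (SE; edgeR adjusted p = 1.52e-11). With DESeq2 the adjusted p was 0.00154. The marked minus unmarked difference on the log2(CPM + 1) scale ran from 0.34 to 3.50 over the libraries. The SE from edgeR draws on the dispersion of all genes and is no measure of that spread alone. The 100 UMIs in marked cells came from 33 cells, and the fullest of them held 11.

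Nr0b2 had 2 UMIs in all marked cells and 160 in all unmarked ones. Marked cells had 0.819, 0 and 0 CPM in the libraries labelled Itgb7 KO and 0, 0 and 0.486 CPM in the wild-type libraries. Unmarked cells had 0.834, 1.69 and 1.86 CPM in the libraries labelled Itgb7 KO and 2.21, 3.06 and 1.21 CPM in the wild-type libraries. Marked cells were lower in 6 of 6 libraries, though replicate 1 labelled Itgb7 KO differed little, and the log2 fold change was -2.70 ± 0.78 (SE; edgeR adjusted p = 0.00569). The marked levels were near the floor, since 3 UMIs make 1.46 to 5.79 CPM there in a library. That range overlaps the unmarked levels, so a 0 in any one library says little of direction. Over the pooled UMIs the marked level was 0.146 times the unmarked one, with an exact 95% interval of 0.0175 to 0.537 that covers counting error only. The call was lost with DESeq2 (adjusted p = 0.0571), without wild-type replicate 1 (edgeR adjusted p = 0.0591), without wild-type replicate 2 (edgeR adjusted p = 0.0509) and with a mark of 1 Fabp6 UMI, where the log2 fold change was -0.58 (edgeR adjusted p = 0.418).

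**Figure D3:**
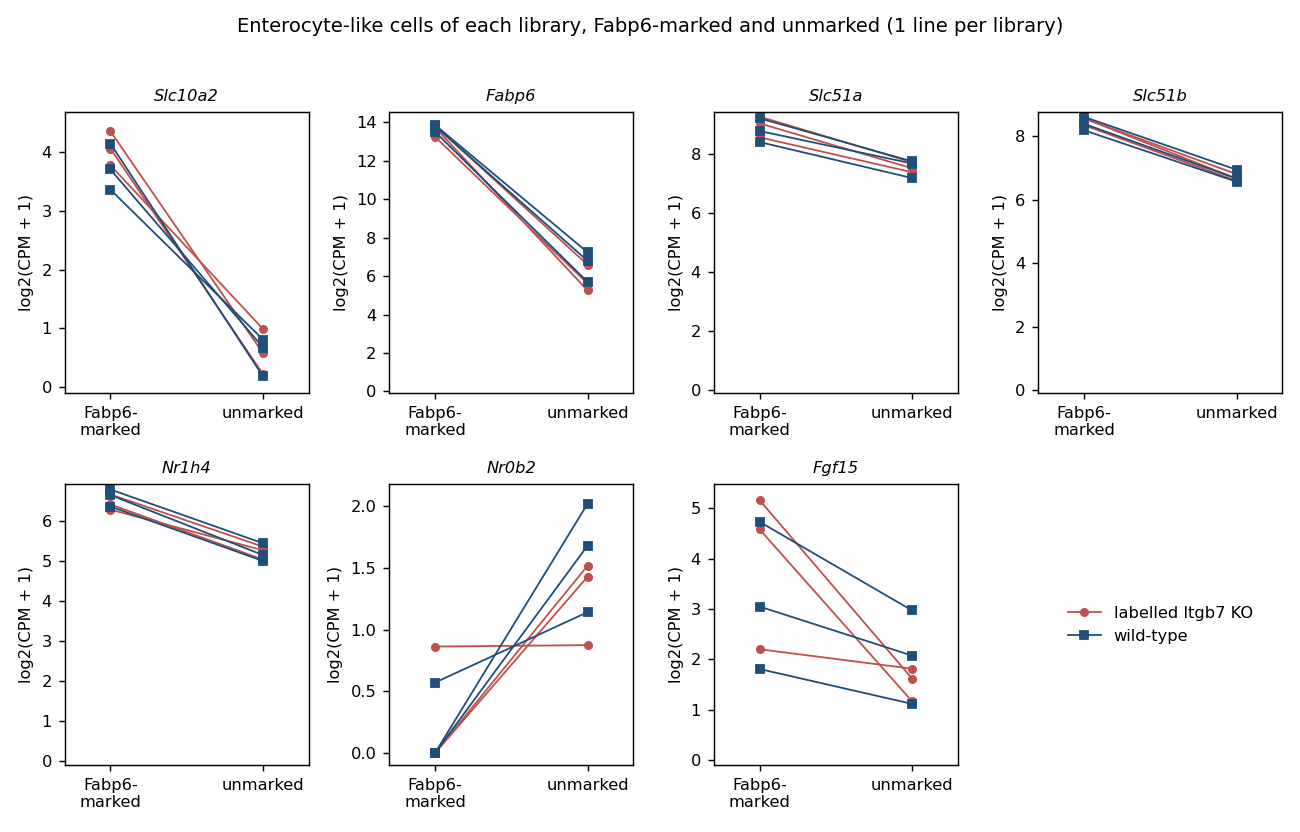
Level of each gene as log2(CPM + 1) in Fabp6-marked and unmarked enterocyte-like cells, with 1 line per library. Lines for Slc10a2, Slc51a, Slc51b and Nr1h4 are higher in marked cells with no overlap, Fgf15 lines are higher but spread from 3.50 to 0.34 in their log2(CPM + 1) difference, and Nr0b2 lines are lower.

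Part of this contrast lay between clusters and part within one. Among the 929 cells of cluster 14 alone, 469 marked against 460 unmarked, an alternative chosen after seeing the data, the log2 fold change was 3.13 for Slc10a2, 0.72 for Slc51a, 0.63 for Slc51b and 0.71 for Nr1h4, each still called by edgeR. That of Fgf15 was 0.78 and was not (edgeR adjusted p = 0.31). Within the cluster 436 genes were called in all, against 2551 over all enterocyte-like cells. Without replicate 1 of both groups, the libraries that stood apart in depth and Paneth cell RNA, the log2 fold changes were 4.14 for Slc10a2, 1.26 for Slc51a, 1.72 for Slc51b, 1.39 for Nr1h4, 2.04 for Fgf15 and -2.95 for Nr0b2, and all 6 calls held.

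Co-detection in single cells was compared at the same 1400 UMIs. Slc51a was detected in 42.5% ± 6.6 of marked and 21.2% ± 3.6 of unmarked cells (SD, n = 6 libraries), Slc51b in 37.7% ± 7.5 of marked and 12.98% ± 1.4 of unmarked cells, and Nr1h4 in 14.2% ± 5.2 of marked and 5.07% ± 0.71 of unmarked cells. Each was more frequent in marked cells of 6 of 6 libraries. The exact 2-sided paired permutation test gave p = 0.0312 for each, the smallest that 6 libraries allow, and 0.0625 after Benjamini-Hochberg adjustment over the 6 genes. Shares in stem-like cells at this depth, 1.47% for Slc51a, 0.653% for Slc51b and 1.52% for Nr1h4, and in goblet-like cells, 1.139%, 0.322% and 2.27% for the same genes, lay below those of unmarked enterocyte-like cells.

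The rarer genes left few cells to compare at that depth. Fgf15 was detected in 1.73% ± 1.19 of marked and 0.307% ± 0.217 of unmarked cells, more often in marked cells of 5 of 6 libraries (exact paired permutation p = 0.0625, adjusted 0.0938). Slc10a2 was detected in 6 of 637 marked and 6 of 7677 unmarked cells, with a higher share in marked cells of 3 of 6 libraries (exact paired permutation p = 0.25, adjusted 0.3). Nr0b2 was detected in 1 of 637 marked and 23 of 7677 unmarked cells (exact paired permutation p = 0.969, adjusted 0.969). At full depth the mean shares with a UMI were 12.1% of marked and 0.511% of unmarked cells for Slc10a2, 91.9% and 79.7% for Slc51a, 89.4% and 59.0% for Slc51b, 60.3% and 36.4% for Nr1h4, 5.54% and 1.86% for Fgf15, and 0.324% and 2.19% for Nr0b2. At that depth stem-like and goblet-like cells with a UMI made 12.5% and 11.6% for Slc51a, 5.57% and 4.52% for Slc51b, 11.5% and 17.5% for Nr1h4, 1.52% and 0.473% for Fgf15, and 0.208% and 0.275% for Slc10a2. For Nr0b2 the share in stem-like cells, 3.68%, was above that in unmarked enterocyte-like cells, and that in goblet-like cells was 0.584%. Between genotypes, the share of marked cells with a UMI at 1400 UMIs passed no exact test for any of the 6 genes, with an adjusted p of 1 for each. With 3 against 3 libraries no p below 0.1 is possible, so this test could not pass at 0.05. It thus does not show that the groups are alike.

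Graded by their Fabp6 UMIs of 1400, enterocyte-like cells had more of the exporter and the receptor at each step. With 0, 1 to 2, 3 to 9 and 10 or more Fabp6 UMIs, Slc51a averaged 184 ± 27, 228 ± 49, 356 ± 81 and 569 ± 133 CPM. Slc51b averaged 100.7 ± 11, 157 ± 28, 268 ± 39 and 412 ± 54 CPM. Nr1h4 averaged 35.4 ± 4.4, 51.9 ± 9.4, 70.4 ± 10.5 and 109 ± 16 CPM over the same bins (SD, n = 6). Slc10a2 averaged 0.453 ± 0.322, 1.54 ± 0.79, 4.42 ± 2.78 and 21.3 ± 6.8 CPM, so 88 of its 103 UMIs in marked cells lay in the 365 cells of the highest bin. Fgf15 did not keep this order, with 2.73 ± 2.174, 4.94 ± 5.27, 21.3 ± 20.8 and 13.02 ± 17.6 CPM. Nr0b2 averaged 1.76 ± 0.85 and 1.88 ± 1.22 CPM in the lower pair of bins, 0 CPM in the bin of 3 to 9 and 0.36 ± 0.58 CPM in the highest bin (SD, n = 6). The bins were not tested against each other, and neighbouring bins overlapped in places.

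**Figure D4:**
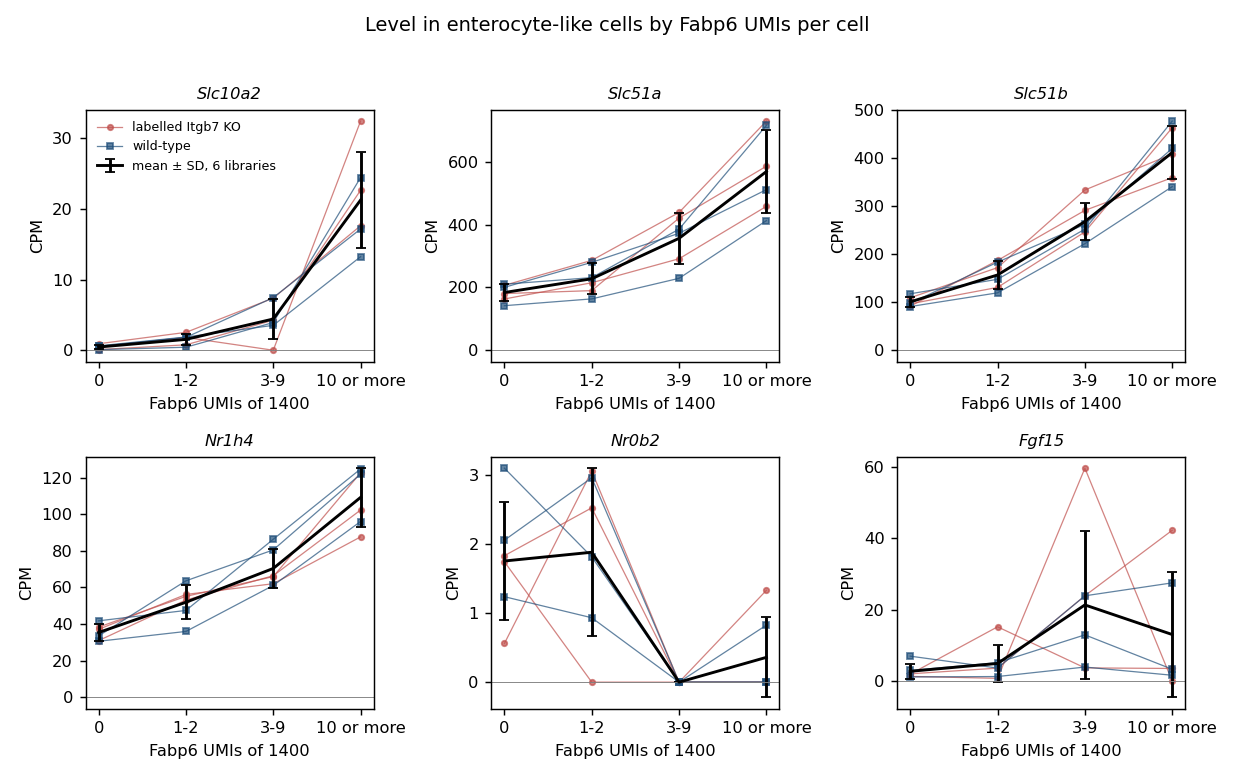
CPM of each gene in enterocyte-like cells by the number of Fabp6 UMIs among 1400, with a thin line per library and the mean ± SD of 6 libraries in black. Slc51a, Slc51b, Nr1h4 and Slc10a2 have higher means at each step, Fgf15 peaks at 3 to 9 UMIs, and Nr0b2 is at 0 there.

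The marked cells were also described by lists of genes known for their place along the intestine. These lists were chosen with earlier results of these data known, so their counts are no independent check. Over all genes tested, 10.3% were called higher in marked cells and 13.1% lower. Of 22 distal genes, all of them tested, 18 rose in marked cells and 0 fell, with a median log2 fold change of 1.27, against -0.01 over all genes tested. Among them were Mep1a, a brush border protease, with 110 ± 41 CPM in marked and 11.6 ± 3.7 CPM in unmarked cells, Tmigd1, with 14.1 ± 7.8 and 1.22 ± 0.52 CPM, and Cubn, the receptor for the vitamin B12 complex, with 1.92 ± 1.77 and 0.196 ± 0.291 CPM (SD, n = 6). Cubn was higher in marked cells of 5 of 6 libraries and near the floor, where 3 UMIs make 1.46 to 5.79 CPM in the marked cells of a library. Of 20 proximal genes tested of 21, 17 fell and 1 rose, with a median of -3.03. Fabp1, the liver-type fatty acid-binding protein, had 140 ± 53 CPM in marked and 3143 ± 1044 CPM in unmarked cells, Apoa4 had 17.9 ± 10.3 and 314 ± 138 CPM, and Rbp2, which binds retinol, had 181 ± 62 and 3247 ± 847 CPM (SD, n = 6). The exception was the iron exporter Slc40a1, with a log2 fold change of 0.29 with an SE of 0.09 (edgeR adjusted p = 0.013).

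By the rule for the strongest genes, those highest in marked cells after Fabp6 were Mgat4c (log2 fold change 2.88 ± 0.08), 1810065E05Rik (2.32 ± 0.08), Scd2 (2.28 ± 0.09), Guca2a (2.12 ± 0.06), Tspan1 (2.09 ± 0.05), Cd9 (2.07 ± 0.06), Fgfbp1 (2.03 ± 0.05) and Naaladl1 (2.03 ± 0.08). The lowest were Reg1 (-4.74 ± 0.08), Fabp1 (-4.46 ± 0.06), Apoa4 (-4.20 ± 0.09), Rbp2 (-4.14 ± 0.07), Creb3l3 (-3.47 ± 0.13), Mme (-3.44 ± 0.17), Onecut2 (-3.35 ± 0.14) and Adh6a (-3.33 ± 0.08). Each is a log2 fold change with its SE from edgeR, in the same direction in 6 of 6 libraries. The rule asks for a mean log2 CPM of 5 or more and took edgeR's mean, in which Mep1a had 4.73. With equal weight for each sum, on the log2(CPM + 1) scale, a reading added after seeing the data, Mep1a (3.19 ± 0.09) and Ceacam20 (2.12 ± 0.11) stand in place of Fgfbp1 and Naaladl1. On the low side Papss2, Adh1 and Gstm3 then stand in place of Creb3l3, Mme and Onecut2.

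Of 12 other bile acid carriers 5 had enough counts to be tested, and 2 rose and 3 fell. Over all genes tested, 10.3% were called higher in marked cells and 13.1% lower. Abcb1a, an apical efflux pump that is also on the distal list, had 59.9 ± 15.7 CPM in marked and 33.7 ± 6.3 CPM in unmarked cells (SD, n = 6; log2 fold change 0.77 ± 0.09 SE, edgeR adjusted p = 6.63e-11). Abcg2, an apical efflux pump, changed by 0.26 ± 0.06 (SE; edgeR adjusted p = 0.000568) and was higher in 4 of 6 libraries. Abcc2, which exports conjugates into the lumen, changed by -1.48 ± 0.14, its basolateral relative Abcc3 by -0.88 ± 0.16 and the organic anion uptake carrier Slco2b1 by -0.51 ± 0.11 (log2 fold change, SE). The median over the 5 was -0.51.

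Of 16 receptors, partners and regulators 14 were tested, and 4 rose and 4 fell, with a median of 0.02. Over all genes tested, 10.3% were called higher in marked cells and 13.1% lower. Listed genes that rose were Fgfr4, the receptor for the Fgf15 hormone (2.56 ± 2.09 CPM in marked and 0.853 ± 0.431 CPM in unmarked cells), Malrd1, known in mice as a regulator of ileal Fgf15 output (25.4 ± 8.1 and 14.7 ± 3.5 CPM), Nr5a2, the nuclear receptor LRH-1 (33.2 ± 5.6 and 25.4 ± 3.9 CPM), and Rxra, the partner of FXR (27.7 ± 6.9 and 22.7 ± 4.1 CPM; SD, n = 6). Fgfr4 was higher in marked cells of 4 of 6 libraries, Nr5a2 in 5 of 6, and Malrd1 and Rxra in 6 of 6. The Fgfr4 level was near the floor, since 3 UMIs make 1.46 to 5.79 CPM in the marked cells of a library. Those that fell were Nr1i3, the nuclear receptor CAR (12.9 ± 2.7 and 38.3 ± 3.0 CPM), Gata4 (17.8 ± 6.1 and 51.5 ± 4.6 CPM), Gata6 (41.9 ± 7.7 and 64.9 ± 5.6 CPM) and the co-repressor Ncor1 (134 ± 9 and 166 ± 8 CPM). Gata4 is known in mice to hold down Slc10a2 in the proximal intestine, and it is also on the proximal list. Of 11 genes of bile acid synthesis and conjugation 3 were tested. Baat, which joins bile acids to amino acids, rose with a log2 fold change of 2.48 with an SE of 0.88 (edgeR adjusted p = 0.0282) at 1.01 ± 0.95 and 0.156 ± 0.138 CPM, and Amacr fell at 17.8 ± 3.1 and 26.04 ± 2.3 CPM (SD, n = 6). Baat was also near the floor and was higher in marked cells of 4 of 6 libraries. The median over the 3 was -0.14.

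Whether the difference between marked and unmarked cells depended on genotype was tested by an interaction term in the same edgeR model. Of 10924 genes 6 (0.0549%) were called, 0 of them among the 6 members tested, and 629 had an unadjusted p under 0.05. DESeq2 called 0. The count was 16 without replicate 3 labelled Itgb7 KO, 13 without wild-type replicate 1, 13 without wild-type replicate 2 and 2 without wild-type replicate 3. For Slc51a, Slc51b and Nr1h4 the interaction log2 fold change was 0.12 ± 0.09, 0.11 ± 0.09 and -0.18 ± 0.14 (SE; edgeR adjusted p = 0.92 for each). Fgf15 was closest, at 1.93 ± 0.45 (SE; edgeR adjusted p = 0.0883). Its marked minus unmarked difference on the log2(CPM + 1) scale was 3.42, 3.50 and 0.34 in the libraries labelled Itgb7 KO and 0.68, 1.74 and 0.95 in the wild-type libraries, so the groups overlapped. The marked Fgf15 UMIs were 28, 18 and 2 in the libraries labelled Itgb7 KO, from 5, 6 and 2 cells, and 5, 32 and 15 in the wild-type libraries, from 4, 8 and 8 cells. Its interaction was called without replicate 3 labelled Itgb7 KO (edgeR adjusted p = 0.00012), without wild-type replicate 1 (0.0214), with no filter on low counts (0.00113) and with doublets kept (0.0207), and its adjusted p over all alternatives ran from 0.00012 to 0.9999.

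Between libraries labelled Itgb7 KO and wild-type libraries no member was called in any of the 4 sets of cells compared. In all kept cells edgeR called 1 of 13551 genes (0.00738%) and 0 of the 7 members. In enterocyte-like cells it called 1 of 11346 genes (0.00881%) and 0 of 7 members. In marked cells it called 0 of 7341 genes (0%), with 225 at an unadjusted p under 0.05 and 4 called by DESeq2, and 0 of the 5 members tested, since Nr0b2 lacked counts and Fabp6 chose the cells. In unmarked cells it called 1 of 11170 genes (0.00895%) and 0 of 5 members, since Slc10a2 lacked counts and Fabp6 chose these cells too. The gene called in the other 3 sets was Agpat4, lower in the libraries labelled Itgb7 KO. In all kept cells the count was 0 without any one of replicates 2 and 3 labelled Itgb7 KO or of the 3 wild-type replicates, 2 without replicate 1 labelled Itgb7 KO and 14 without replicate 1 of both groups. In enterocyte-like cells it was 0 without replicates 2 or 3 of either group in turn, and in unmarked cells 0 without replicates 2 or 3 labelled Itgb7 KO or wild-type replicate 3. With the replicate number as a block, 5 genes were called in all kept cells and 12 in marked cells, 0 of them members.

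Fabp6 in all kept cells had 403, 162 and 244 CPM in the libraries labelled Itgb7 KO and 560, 293 and 597 CPM in the wild-type libraries. The groups overlapped, with a log2 fold change of -0.86 with an SE of 0.44 (edgeR adjusted p = 0.95). Between same-numbered libraries it was lower in the library labelled Itgb7 KO in 3 of 3 pairs, and with the replicate block the log2 fold change was -0.90 (edgeR adjusted p = 0.254). In enterocyte-like cells it had 1426, 411 and 601 CPM in the libraries labelled Itgb7 KO and 1926, 942 and 1440 CPM in the wild-type libraries (log2 fold change -0.79 ± 0.50 SE; edgeR adjusted p = 0.914). Marked cells, which were chosen by their Fabp6, had 14500, 13612 and 9695 CPM in the libraries labelled Itgb7 KO and 14856, 11634 and 14286 CPM in the wild-type libraries, given without a test. In sums over cells of a library, fewer Fabp6-high cells and less Fabp6 RNA per cell cannot be told apart, and the share of marked cells given above differed in the same direction without passing its test. The 20 proximal genes tested in enterocyte-like cells had a median log2 fold change of 0.36 with 15 above 0, the 21 distal genes a median of -0.13 with 6 above 0, and all 11346 genes a median of 0.00. None of the listed genes was called, and the part of regional make-up in the Fabp6 values was not tested.

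The other transport genes and the receptor lay closer together. Slc51a in enterocyte-like cells had 213, 220 and 178 CPM in the libraries labelled Itgb7 KO and 259, 221 and 162 CPM in the wild-type libraries (log2 fold change -0.06 ± 0.22 SE; edgeR adjusted p = 0.969). Slc51b had 126, 119 and 109 CPM in the libraries labelled Itgb7 KO and 155, 119 and 113 CPM in the wild-type libraries (-0.12 ± 0.19; edgeR adjusted p = 0.944). Nr1h4 had 45.8, 38.8 and 35.0 CPM in the libraries labelled Itgb7 KO and 50.8, 39.6 and 35.9 CPM in the wild-type libraries (-0.06 ± 0.21; edgeR adjusted p = 0.967). For each of these genes the groups overlapped, and the sign of the fold change turned under some alternatives. Slc10a2, with 21, 19 and 16 UMIs in enterocyte-like cells of the libraries labelled Itgb7 KO and 35, 24 and 34 UMIs in those of the wild-type libraries, differed by -0.28 ± 0.34 on the log2 scale (SE; edgeR adjusted p = 0.926).

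Fgf15 had 3.25, 2.98 and 2.59 CPM in enterocyte-like cells of the libraries labelled Itgb7 KO and 1.33, 8.28 and 3.60 CPM in those of the wild-type libraries, so the wild-type values lay on both sides of the others (log2 fold change -0.52 ± 0.53 SE; edgeR adjusted p = 0.914). Without wild-type replicate 2 its sign turned, to 0.26. By set of cells it was 0.999 ± 0.71 in marked cells (edgeR adjusted p = 0.9998) and -0.91 ± 0.55 in unmarked cells (edgeR adjusted p = 0.912). Nr0b2 had 0.832, 1.65 and 1.76 CPM in enterocyte-like cells of the libraries labelled Itgb7 KO and 1.94, 2.82 and 1.139 CPM in those of the wild-type libraries (-0.45 ± 0.41; edgeR adjusted p = 0.914). In stem-like cells its log2 fold change was 0.57 ± 0.43 (SE; edgeR adjusted p = 0.968).

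**Figure D5:**
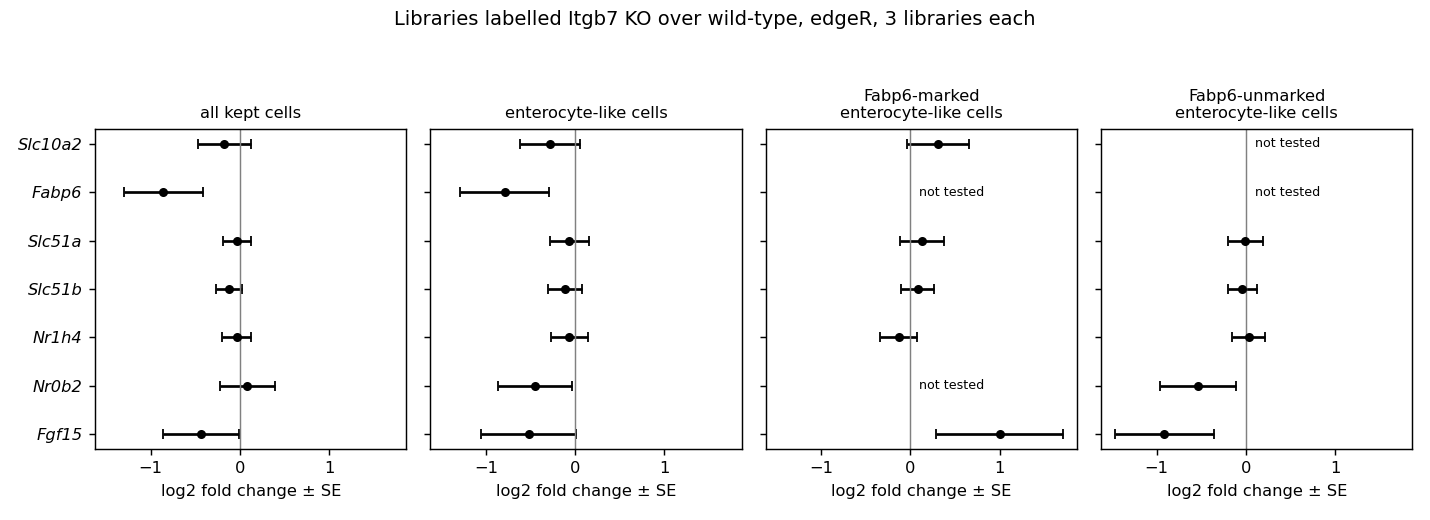
Log2 fold change ± SE from edgeR of each gene, libraries labelled Itgb7 KO over wild-type libraries, in 4 sets of cells with 3 libraries in each group. Fabp6 lies at -0.86 in all kept cells and at -0.79 in enterocyte-like cells and was not tested in the sets chosen by it, Slc51a, Slc51b and Nr1h4 lie near 0 in each set, and no value was called.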

How the data were processed

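Single-cell libraries of small-intestinal epithelium were analysed, 3 labelled Itgb7 KO and 3 wild-type. The authors deposited a matrix of UMI counts for each library, in whole numbers and with no normalization. The tools named in the submitters' processing notes are Seurat, Cell Ranger 2.1.1 and bcl2fastq 2.17.1.14, with build mm10.

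Barcodes with under 500 genes (3), under 1000 UMIs (0) or over 25% mitochondrial UMIs (107) were left out, as were 977 doublets, the highest Scrublet scores at 0.8% per 1000 barcodes, since its automatic threshold marked under 0.5% of barcodes in 5 of 6 libraries. After scaling each cell to 10000 UMIs, 30 principal components of 2000 variable genes were adjusted for library by an own Harmony-type step. Leiden clustering (scanpy 1.11.5, 15 neighbours, resolution 1.5) gave 26 clusters, named X-like from fixed markers. Cluster 21, with 516 cells led by mitochondrial genes, stayed unnamed. Cluster 14 tied between mature and lower-villus enterocyte markers.

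UMI counts were summed per library and set of cells and tested with edgeR 4.0.16 (quasi-likelihood, TMM, filterByExpr, Benjamini-Hochberg at 0.05) in R 4.3.3, with DESeq2 1.42.0 as an alternative. A library needed 20 cells. Intervals cover counting error only. The scripts were tested on simulated data. Same-numbered libraries of the groups deviated together (r = 0.67, 0.28 and 0.28 in all kept cells, 0.62, 0.30 and 0.27 in enterocyte-like cells, 0.51, 0.13 and 0.19 in marked cells). Replicate 3 labelled Itgb7 KO went more closely with wild-type replicate 2 (r = 0.48, 0.44 and 0.29 in the same sets). These values set replicate 1 apart but do not pair replicates 2 and 3 by number, and the labels state no pairs. The pairs and the replicate block thus rest on the replicate numbers alone.

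The genes described, the lists and the tests were chosen with earlier results of these data known. The text names these genes and Itgb7. It also names up to 4 called genes of a list and direction, and any gene called between genotypes. From marked against unmarked cells it takes the 8 largest and 8 smallest folds among called genes with an edgeR average of 5 or more in log2 CPM that kept 1 direction in 6 libraries. For Fabp6 and Slc10a2 it takes the 5 genes most alike across clusters. Other alternatives were scaling, no filter, blocks, other marks and thinning, leaving out libraries, 10% mitochondrial UMIs, doublets kept and mature cells only.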

Additional observations from a re-analysis of the deposited data

Results flagged for a closer look

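The share of cells with an Nr0b2 UMI at 1400 UMIs, marked minus unmarked enterocyte-like cells, was 1.43 percentage points in replicate 1 labelled Itgb7 KO, far from the other 5 libraries. It rests on 1 marked cell of 70. Such a test was made for 13 sets of 6 library values, and chance alone marks about 1 set in 20.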

How the results depend on the processing

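Each comparison was recomputed under other settings. Of the member folds between marked and unmarked cells, Slc10a2, Slc51a, Slc51b and Nr1h4 kept direction and call under every alternative run, while Fgf15 and Nr0b2 kept direction and lost their call as given above. The count of genes called there left its range only in cluster 14 (436). Between genotypes no alternative called a member (lowest adjusted p 0.131 of 396 values). Counts of genes called under DESeq2 were 26 in all kept, 10 in enterocyte-like, 4 in marked and 10 in unmarked cells and 0 for the interaction. With no filter they were 2 in all kept cells, 58 in marked cells and 15 for the interaction. With the replicate block they were 5 in all kept and 12 in marked cells, and the block changed no other call. The serial numbers of the libraries set replicate 1 of both groups apart from the other libraries. With a block for these runs of serial numbers the counts were 4 in all kept and 2 in each other set. A mark of 1 Fabp6 UMI gave 1 in marked cells and 0 for the interaction. Leaving out libraries gave 0 to 14 in all kept cells, 0 to 1 in the other sets and 2 to 16 for the interaction. The paired exact test of the marked share gave -3.80 points (p = 0.25).

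Co-detection differences passed the threshold, in percentage points, at a mark of 1 UMI for Slc51a (13.5), Slc51b (15.02), Nr1h4 (5.60) and Fgf15 (0.861), and at 4000 UMIs with a mark of 9 for Slc10a2 (6.29), Slc51a (29.4), Slc51b (38.2), Nr1h4 (19.6) and Nr0b2 (-0.813). That of Nr0b2 turned to 0.0316 at a mark of 6 and 0.0267 in mature cells, and ran from -0.333 to 0.075 without a library. The smallest exact paired permutation p that 6 libraries allow, 0.0312, was adjusted to 0.0469 at a mark of 1 and to 0.0375 at 4000 UMIs. In the main setting, where fewer genes reached it, it was adjusted to 0.0625. Passing thus turned on how many genes reached that p. At a mark of 1 the differences that passed were smaller than in the main setting, for Slc51a 13.5 against 21.3 points.

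Signs near 0 turned between genotypes, none called, and the cause was not tested. By library totals Slc51a was 0.021 and Nr1h4 0.012 in all kept cells. In unmarked cells Slc51a was 0.0018 with DESeq2, 0.024 with the replicate block, 0.016 with the serial block, 0.0046 at a mark of 1 and 0.0021 at a mark of 6, and Nr1h4 was -0.022 with upper-quartile scaling.

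Without replicate 1 of both groups, chosen after seeing the data, log2 fold changes turned to 0.084 for Slc10a2, 0.19 for Slc51a, 0.048 for Slc51b and 0.098 for Nr1h4 in all kept cells. They turned to 0.089 for Slc51a, 0.013 for Slc51b and 0.0050 for Nr1h4 in enterocyte-like cells, to 0.14 for Slc51a and 0.11 for Slc51b in unmarked cells, and to -4.36 for the interaction of Nr0b2.

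Leaving out 1 library at a time also turned signs, with no call. In all kept cells the fold change ran from -0.15 to 0.11 for Slc51a, from -0.14 to 0.14 for Nr1h4, from -0.10 to 0.33 for Nr0b2 and from -0.79 to 0.043 for Fgf15. In enterocyte-like cells it ran from -0.25 to 0.14 for Slc51a, from -0.23 to 0.086 for Slc51b, from -0.22 to 0.14 for Nr1h4 and from -0.94 to 0.26 for Fgf15. In marked cells it ran from -0.058 to 0.41 for Slc51a, from -0.031 to 0.24 for Slc51b and from -0.32 to 0.013 for Nr1h4. In unmarked cells it ran from -0.18 to 0.17 for Slc51a, from -0.14 to 0.15 for Slc51b and from -0.088 to 0.23 for Nr1h4. The interaction ran from -0.26 to 1.07 for Slc10a2 and from -3.59 to 5.72 for Nr0b2.

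The mature minus lower-villus level turned with the clustering, to -1578 and -2353 CPM for Fabp6 and to -1.46 and -2.35 CPM for Slc10a2, without the 7 genes and with doublets kept.

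A match of UMIs per cell across libraries and a comparison within lower-villus cells alone were not run, since libraries fell under 20 cells. The match left 18 kept cells in replicate 3 labelled Itgb7 KO. Its marked cells were 58, 3 and 1 in the libraries labelled Itgb7 KO and 90, 5 and 29 in the wild-type libraries. Marked lower-villus cells were 17, 8 and 14 in the libraries labelled Itgb7 KO, so that whole group fell short.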
